A study of Homo sapiens with 6 samples.

Results

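The 4 ID genes, ID1, ID2, ID3 and ID4, were examined for SMAD2 binding in Hs578T cells, an established human line of triple-negative breast cancer. Chromatin immunoprecipitation with the SMAD2 antibody EP567Y and sequencing (ChIP-seq) gave 4 lists of peak summits, a summit being the single base of highest signal in a peak. All cells were stimulated with activin A at 50 ng/ml for 1.5 h, in 2 libraries without a further drug (the activin group) and in 2 from cells that also received palbociclib at 1 µM for 24 h (the palbociclib group). Palbociclib inhibits the kinases CDK4 and CDK6, and the comparison asks how SMAD2 binding after activin differs under it. Summits were taken as belonging to an ID gene when they lay within 50 kb of its start on hg19. The starts used were 30193086 on chromosome 20 for ID1, 8822113 on chromosome 2 for ID2, 23886285 on chromosome 1 for ID3 (on the minus strand) and 19837601 on chromosome 6 for ID4. Of 79310 summits in the 4 lists, 100 met this rule. Summits within 250 bp of the next were joined, which gave 51 sites near ID genes among 36648 sites in all.

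ID proteins (inhibitors of DNA binding) are helix-loop-helix proteins that lack the basic region needed to contact DNA. They pair with E proteins and related basic helix-loop-helix factors and keep them off their targets, which holds back differentiation and favours proliferation in many cell types. Their genes are classical direct targets of the BMP branch of the pathway through SMAD1 and SMAD5. Activin and TGF-β act through SMAD2 and SMAD3, and in epithelial cells TGF-β is known to repress ID1 through SMAD3 and ATF3. In breast cancer, ID1 and ID3 are known for roles in metastatic outgrowth. No RNA was measured in the files used here, so binding could not be set beside expression, and there was no library without activin.

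The 2 activin lists had 25553 (replicate 1) and 7241 (replicate 2) summits; the palbociclib lists had 27290 and 19226, respectively. Activin replicate 2 is thus much shorter than the others. Read numbers per library were not used here, so depth is unknown. Each summit carries the authors' score, on a −log10 scale, which grows with depth and was therefore compared only by rank. The 2 replicates of a group are labelled as separate samples, with nothing said on separate cultures, so their spread may be technical. Per the labels, each treatment had its own input (chromatin DNA without immunoprecipitation). If both libraries of a group were called against that input, treatment and input cannot be told apart.

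All 4 ID genes had a strong SMAD2 site at the start, present in all 4 libraries. Such a site was required to lie within 500 bp of the start, a distance set after the data were seen. These start sites were the best-ranked site of their gene in every library. How many other genes have such a site at their start was not analysed here, because no hg19 annotation was used. As a general background, 15.9% of all sites were found in all 4 libraries. That share counts sites of any strength and place, so it is not the share for strong sites or for gene starts.

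At ID3, the summits of activin replicates 1 and 2 lay 287 and 295 bp downstream of the start, and those of palbociclib replicates 1 and 2 lay 328 and 309 bp downstream. Their scores were 215.2 and 42.81 in the activin replicates and 401.49 and 229.19 in the palbociclib replicates. This put the site at rank 88 and 130 in the activin lists and at rank 65 and 50 in the palbociclib lists. The site was therefore among the strongest of each list; these ranks come from lists of unequal length and are compared between treatments further on. It covers 23885957 to 23885998 on chromosome 1.

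At ID2, whose protein was described as a partner of E proteins and of RB, the site covers 8822199 to 8822263 on chromosome 2. The summits lay 125 and 150 bp downstream of the start in activin replicates 1 and 2 and 104 and 86 bp downstream in palbociclib replicates 1 and 2. The scores were 182.32 and 44.52 after activin alone and 371.35 and 204.35 with palbociclib. The site ranked 182 and 121 in the activin lists and 100 and 80 in the palbociclib lists.

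At ID1, the family member most often described as a BMP target, the summits lay almost on the start itself. They were 2 bp downstream and 3 bp upstream of it in activin replicates 1 and 2, 8 bp downstream in palbociclib replicate 1 and exactly on it, at 0 bp, in palbociclib replicate 2. The activin replicates scored 127.35 and 24.62 and the palbociclib replicates 306.81 and 187.9. The ranks were 761 and 559 in the activin lists against 195 and 120 in the palbociclib lists. The site covers 30193083 to 30193094 on chromosome 20.

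At ID4, which is known as a regulator of mammary and neural progenitors, the site covers 19837728 to 19837734 on chromosome 6. Both activin summits lay 127 bp downstream of the start and both palbociclib summits lay 133 bp downstream. The scores were 132.56 and 19.96 after activin alone and 259.36 and 125.34 with palbociclib. The site ranked 645 and 897 in the activin lists and 351 and 424 in the palbociclib lists.

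**Figure D1:**
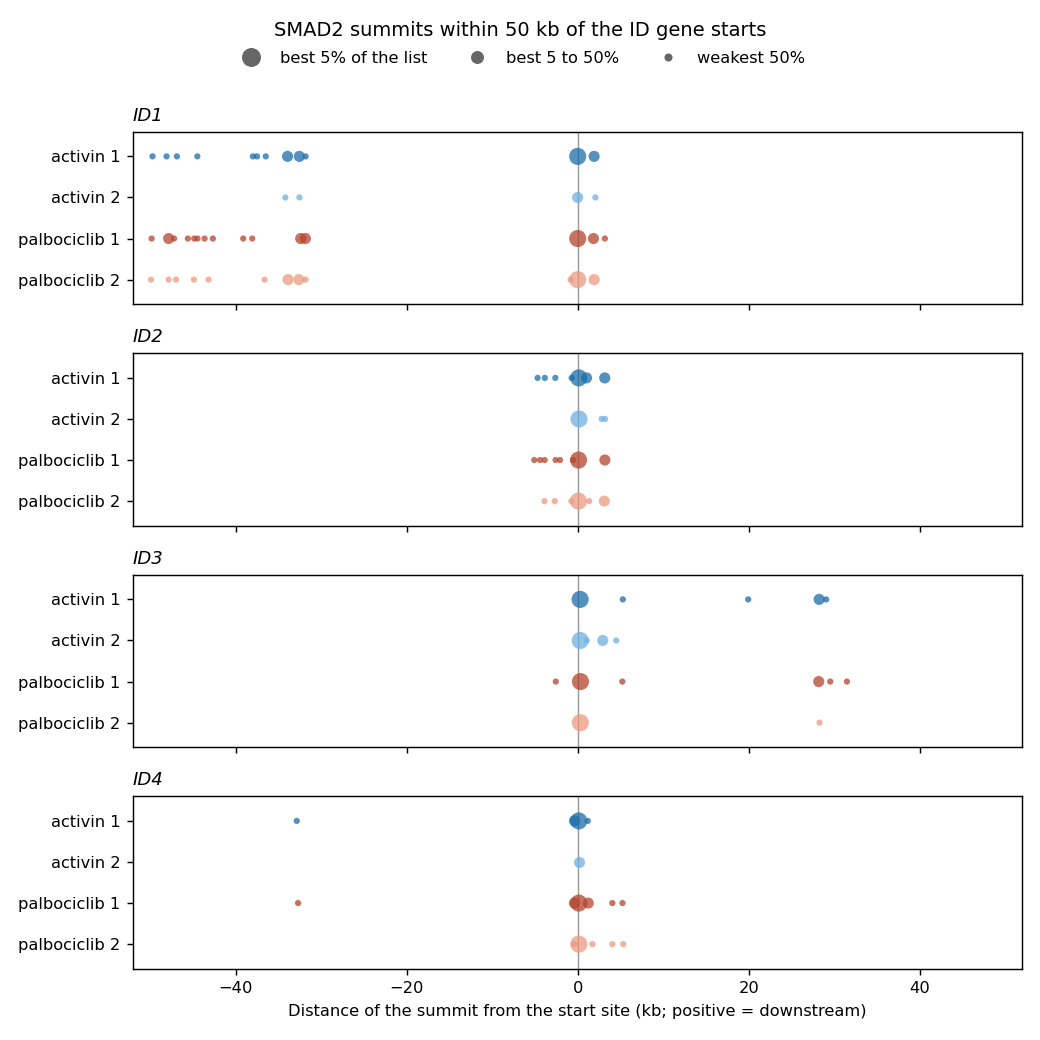
Position of every SMAD2 summit within 50 kb of the 4 ID gene starts, in kb from the start with downstream to the right and 1 row per library. Larger dots are better ranks within the library's own list. The largest dots sit at each start, except in activin replicate 2 at ID1 and ID4, where the dots are middle-sized. ID1 has a further group of mostly weak summits upstream.

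Summit positions agreed to within a few bases at ID1 and ID4 and less closely at ID2 and ID3. The best summits of the 4 libraries spanned 6 bp at ID4 and 11 bp at ID1, against 41 bp at ID3 and 64 bp at ID2. The median span over the 5829 sites found in all 4 libraries (here common sites) was 46 bp. Of these common sites, 1.39% had a span as short as that at ID4 and 5.49% one as short as that at ID1. The spans at ID3 and ID2 were ordinary, since 44.1% and 64.5% of common sites had spans as short.

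The letters just upstream of the annotated starts are shown because the strongest summits lay near the starts of these genes. They are the 250 bases before each start in RefSeq (GRCh38.p14), written 5′ to 3′ on the strand of the gene, with capitals for each SMAD box, the 4 letters GTCT or AGAC. All 4 genes matched by symbol. The RefSeq starts may be other bases than the hg19 starts from which distances are given here. The windows were not placed on hg19, so no summit is located relative to these letters.
ID1, chr20:31605039-31605288 (+ strand): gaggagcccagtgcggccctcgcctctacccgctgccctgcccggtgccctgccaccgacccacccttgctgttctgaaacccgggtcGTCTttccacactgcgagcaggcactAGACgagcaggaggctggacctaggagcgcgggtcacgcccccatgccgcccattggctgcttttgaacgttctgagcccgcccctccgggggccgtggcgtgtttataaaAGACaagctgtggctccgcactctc
ID2, chr2:8681806-8682055 (+ strand): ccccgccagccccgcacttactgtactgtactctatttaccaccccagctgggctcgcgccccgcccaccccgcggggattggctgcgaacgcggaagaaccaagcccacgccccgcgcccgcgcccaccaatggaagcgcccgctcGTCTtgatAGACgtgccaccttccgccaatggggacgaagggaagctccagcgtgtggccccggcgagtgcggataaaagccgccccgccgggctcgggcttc
ID3, chr1:23559502-23559751 (- strand): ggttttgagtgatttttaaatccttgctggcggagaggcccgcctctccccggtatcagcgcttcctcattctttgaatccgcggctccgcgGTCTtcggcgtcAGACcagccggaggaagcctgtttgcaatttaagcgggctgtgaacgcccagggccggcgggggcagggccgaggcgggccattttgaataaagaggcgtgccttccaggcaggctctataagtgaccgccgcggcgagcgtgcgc
ID4, chr6:19837120-19837369 (+ strand): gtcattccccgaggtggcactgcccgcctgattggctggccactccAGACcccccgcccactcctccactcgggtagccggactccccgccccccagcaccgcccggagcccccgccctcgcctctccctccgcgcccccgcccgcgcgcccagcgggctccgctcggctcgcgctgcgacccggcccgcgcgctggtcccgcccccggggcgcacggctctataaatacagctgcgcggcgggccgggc

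Each of the 4 windows held at least 1 SMAD box, but so did 77.5% of 35116 RefSeq promoters in windows of the same length. ID1 had 3 boxes, ID2 and ID3 had 2 each and ID4 had 1, against a median of 1. At ID2 the boxes face each other across 4 bases (GTCT, then AGAC), and at ID3 across 8 bases. Such a pair with at most 8 bases between was found in 1.97% of all promoters, and was looked for after these sequences had been seen. The joined palindrome GTCTAGAC, held by 0.182% of promoters, was in none of the 4 windows. The same was true of GGCGCC (16.4% of promoters), CAGACA (13.6%), the AP-1 motif TGACTCA (4.2%) and the CRE motif TGACGTCA (1.65%), each searched on both strands. GGAGCC was found in ID1, ID3 and ID4, and in 30.6% of promoters. The GC box GGGCGG was found 6 times in ID4, 2 times each in ID1 and ID2 and not in ID3, and in 42.6% of promoters. The GC content was 66.0% at ID1, 69.2% at ID2, 62.0% at ID3 and 78.8% at ID4, against a median of 58.0% over all promoters. As high a GC content was found in 30.4%, 22.5% and 40.8% of promoters for ID1, ID2 and ID3, and in 4.64% for ID4. These matches describe letters only.

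**Figure D2:**
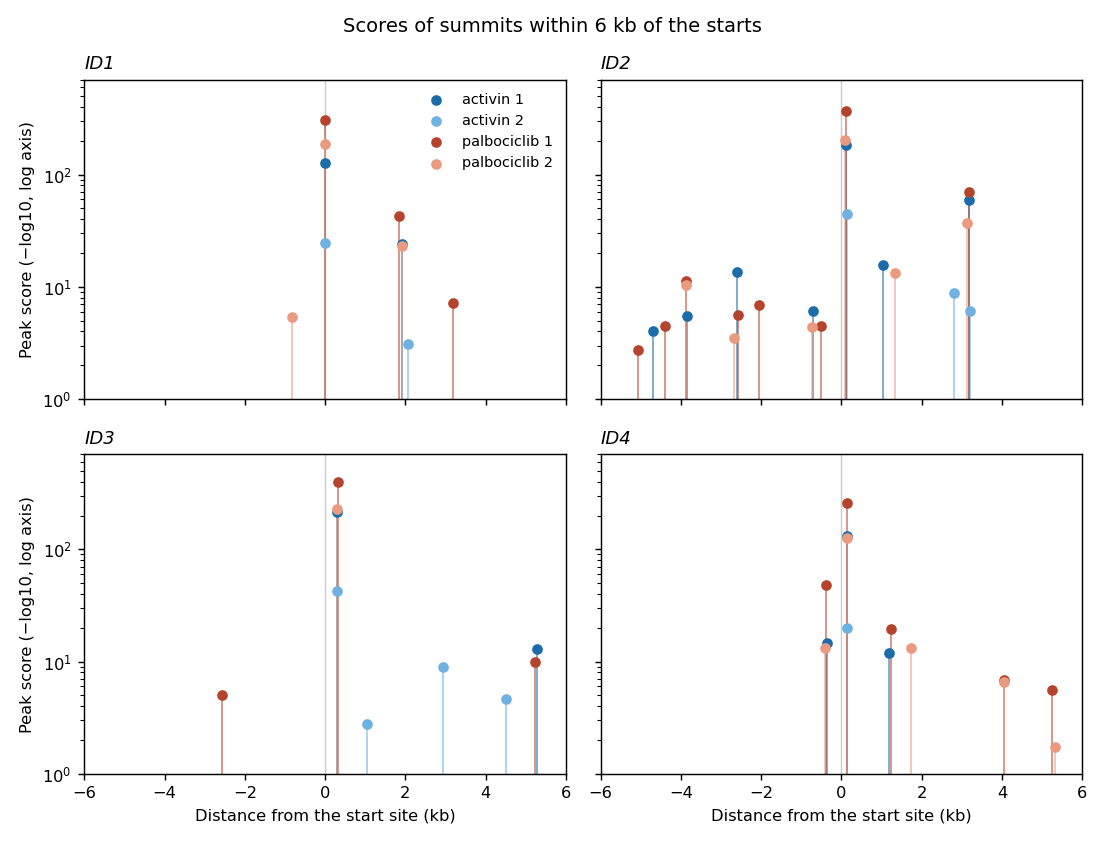
Authors' peak score (−log10, log axis) of each summit within 6 kb of the 4 starts, by distance from the start in kb, coloured by library. The start site stands above every other summit of its gene in each library, and the scores of activin replicate 2 are lowest there.

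The start sites were then compared between treatments over the same sites in each library. Each library ranked the 5829 common sites, a set that the shortest list limits, and ranks were turned into percentiles that run from 0 at the strongest to 100 at the weakest. At ID1 the percentile was 12.7 and 9.15 in the activin replicates, and 3.28 and 2.02 in those with palbociclib. The group means were 10.9 ± 2.51 for activin and 2.65 ± 0.892 for palbociclib (SD, n = 2 each), a difference of -8.27 percentile points. On this scale the difference was largest at ID1; as a percentile of each whole list it was largest at ID4, with -4.68 at ID1, -0.8 at ID2, -0.82 at ID3 and -5.71 at ID4.

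At ID4 the percentile was 10.8 and 15.0 in the activin replicates and 5.92 and 7.1 in the palbociclib replicates. The means were 12.9 ± 2.98 and 6.51 ± 0.837, and the difference was -6.39 points. At ID2 the values were 3.02 and 1.96 in the activin replicates against 1.66 and 1.35 in the palbociclib replicates, a difference of -0.98 points. At ID3 they were 1.44 and 2.11 against 1.06 and 0.841, a difference of -0.82 points. ID2 and ID3 were already near the top of the scale in the activin group, which leaves little room for a better percentile. Whether this accounts for their smaller differences was not tested. As mean ranks among common sites, activin and palbociclib had 637.5 and 155.25 at ID1 and 752.75 and 380.5 at ID4. At ID2 the mean ranks were 146 and 88.75, and at ID3 they were 104.5 and 56.5.

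At 4 of the 4 start sites, each palbociclib library gave a better rank than either activin library. Over all common sites this held for 26.2%, and the opposite order held for 28.2%. Among the 466 common sites with a mean percentile of at most 10, a range that holds all 4 start sites, the shares were 28.8% and 34.3%. The mean difference was -4.12 points over the 4 start sites, against 0.024 points over those 466 sites. The mean percentile over the 4 start sites was 7.02 ± 0.047 for activin and 2.9 ± 0.109 for palbociclib (SD, n = 2 each). The small activin SD hides shifts that cancel in the mean. From activin replicate 1 to replicate 2 the percentile fell at ID1 and ID2 and rose at ID3 and ID4. At single sites the activin SD was up to 2.98, at ID4. An exact permutation test of the means over the 4 start sites, two-sided, gave p = 0.333. This is the smallest p that 2 against 2 libraries allow, so no difference here can pass 0.05. For each start site alone the exact permutation p was also 0.333. The 4 sites were read in the same libraries and against the same inputs, so they are not independent replicates.

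The size of the difference also moved with the activin library used, while its direction did not. Against activin replicate 2 alone, the palbociclib mean differed by -6.5 points at ID1, -0.45 at ID2, -1.16 at ID3 and -8.49 at ID4. Against activin replicate 1 alone, it differed by -10.1 at ID1, -1.51 at ID2, -0.489 at ID3 and -4.28 at ID4. Within replicate 1 the change was -9.42 at ID1 and -4.87 at ID4, and within replicate 2 it was -7.13 and -7.9. The largest difference was thus at ID1 against activin replicate 1 and at ID4 against activin replicate 2. Without activin replicate 2, 14053 sites were common to the other libraries, and among these the difference was -4.2 at ID1, -0.635 at ID2, -0.203 at ID3 and -1.8 at ID4.

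**Figure D3:**
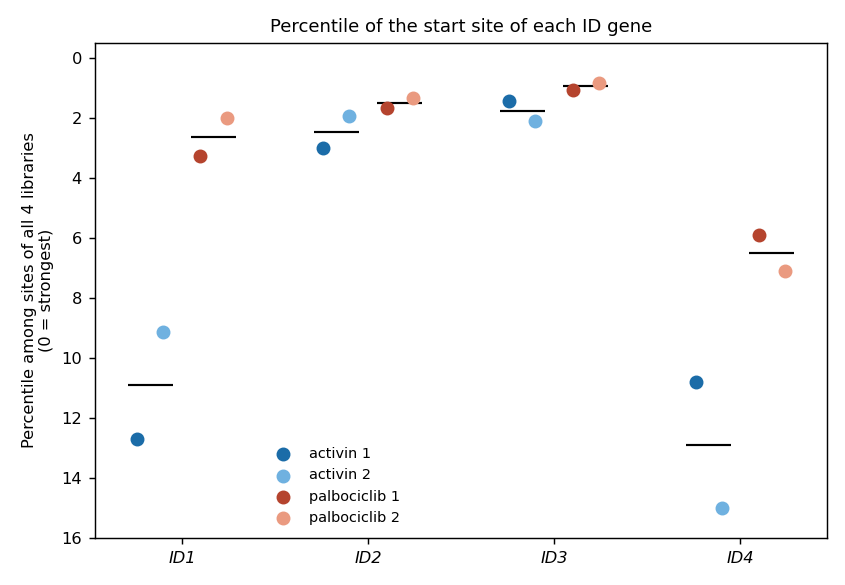
Percentile of the start site of each ID gene among the 5829 common sites, with 0 (strongest) at the top; points are libraries and black lines group means (n = 2). Both palbociclib points lie above both activin points at each gene, with wider gaps between group means at ID1 and ID4 than at ID2 and ID3.

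By the score within each library, ID3 led the family in 3 of the 4 libraries and ID2 in activin replicate 2. ID2 followed ID3 in those 3 libraries. ID4 was ahead of ID1 in activin replicate 1 and behind it in the other 3 libraries. In the activin group the percentiles of ID2 and ID3 overlapped, as did those of ID1 and ID4, so neither of these neighbours was parted there. In the palbociclib group the values of all neighbours in the order ID3, ID2, ID1, ID4 were apart. Averaged over the 4 libraries, 1.17% of common sites were ranked as high as ID3, 1.7% as high as ID2, 5.04% as high as ID1 and 7.72% as high as ID4.

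Away from the starts, scores were lower and the sites differed from gene to gene. The shares that follow are of all 51 sites and include the 4 start sites. Of the 51 sites, 7 were found in all 4 libraries (13.7%, against 15.9% of all sites). All 4 start sites are among these 7, so away from the starts the share in all 4 libraries was lower than 13.7%. Another 25 were found in 1 library (49.0%, against 39.7%). A further 9 sites were missing only in activin replicate 2 (17.6%, against 22.5%), the shortest list. These shares are close to, or below, those of the whole series, apart from the larger share found in 1 library. Of the 25 sites in 1 library, 22 had a score below 10. The share with such scores among all sites in 1 library was not analysed. A score of 10 is also not the same rank in each list.

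ID1 had the most summits within 50 kb, with 43 summits in 21 sites. Of all 100 kb stretches of the genome, cut from the first base of each chromosome to its last summit, 0.506% held as many summits, and 70.3% held none. Unlike the windows of the ID genes, these stretches are not centred on a gene start. Such shares, here and for the other genes, therefore compare unlike windows. Within 10 kb of the start ID1 did not lead, with 10 summits against 24 at ID2, 10 at ID3 and 14 at ID4. Most of the ID1 sites lay far upstream of the gene, from 31805 to 50095 bp before the start. By start position in RefSeq (GRCh38.p14), MCTS2 is the next protein-coding gene on that side and COX4I2 on the other. Gene ends were not compared, so another gene may reach nearer to ID1 or cover these sites. Within this stretch a site from 32592 to 32385 bp upstream was present in all 4 libraries. Its scores were 41.43 and 3.8 in the activin replicates and 41.8 and 17.83 in the palbociclib replicates. Among the common sites it stood low, with percentiles of 88.0 and 92.6 in the activin replicates and 95.1 and 96.1 in the palbociclib replicates. Here the order was the opposite of that at the start, since the activin libraries both ranked it higher.

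Close to ID1, a site from 1846 to 2068 bp downstream of the start was also present in all 4 libraries. Its scores were 24.08 and 3.11 in the activin replicates and 42.85 and 22.88 in the palbociclib replicates. Its percentiles were 97.2 and 95.4 against 94.7 and 92.3, so the palbociclib libraries ranked higher by a small margin among the weakest common sites. A summit 832 bp upstream appeared only in palbociclib replicate 2, with a score of 5.42, and one 3180 bp downstream only in palbociclib replicate 1, with a score of 7.17. Between these and the upstream stretch lay 30973 bp with no summit in any library, and the next summit downstream was 56577 bp from the start.

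At ID2 all 24 summits lay between 5073 bp upstream and 3202 bp downstream of the start. As many summits were found in 2.13% of the 100 kb stretches. Beyond them no library had a summit for 92807 bp upstream, towards RNF144A, or for 152345 bp downstream, towards KIDINS220, in the RefSeq gene order. A site from 3119 to 3202 bp downstream was common to all 4 libraries, with scores of 59.31 and 6.09 in the activin replicates and 70.0 and 36.84 in the palbociclib replicates. Its percentiles were 69.4 and 75.7 in the activin replicates and 82.2 and 75.6 in the palbociclib replicates, which overlap.

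On the upstream side of ID2, 3 sites were missing only in activin replicate 2. They lay from 3878 to 3840 bp, from 2677 to 2583 bp and from 738 to 515 bp before the start, and their scores ran from 3.47 to 13.66. Summits of activin replicate 1 were found alone at 4684 bp upstream and 1039 bp downstream, with scores of 4.05 and 15.5. Palbociclib replicate 1 alone had summits 4396 and 2060 bp upstream, with scores of 4.46 and 6.83. Palbociclib replicate 2 alone had one 1346 bp downstream with a score of 13.17, and activin replicate 2 alone one 2806 bp downstream with a score of 8.76. The best score among these 9 lesser sites, 15.5, was far below the 182.32 of the start site in the same library.

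ID3 had 17 summits in 11 sites, and the start site was the only one in all 4 libraries. As many summits were found in 3.66% of the 100 kb stretches. A site from 28186 to 28281 bp downstream of the start, towards E2F2, was missing only in activin replicate 2. Its scores were 33.55 in activin replicate 1 and 32.99 and 13.4 in the palbociclib replicates. How near this site lies to the start of E2F2 was not measured, for want of hg19 starts, so it may belong to that gene. Of 8 sites in 1 library, those within 5 kb were a summit of palbociclib replicate 1 at 2558 bp upstream, with a score of 5.07, and 3 summits of activin replicate 2. The latter lay 1050, 2932 and 4507 bp downstream and had scores of 2.8, 8.96 and 4.64. No other library had a summit at these 3 places, although activin replicate 2 had the shortest list. Upstream, towards RPL11, no further summit was found for 129486 bp.

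ID4 had 16 summits in 7 sites and the longest flanks without summits. No summit of any library was found between 32842 and 1449933 bp upstream, towards RNF144B, or between 5323 and 374949 bp downstream, towards MBOAT1. As many summits as in its window were found in 4.02% of the 100 kb stretches. A second site just before the start, from 407 to 372 bp upstream, had scores of 14.73 in activin replicate 1 and 47.72 and 13.17 in the palbociclib replicates, and was missing in activin replicate 2. A site from 1183 to 1234 bp downstream was found in both replicate 1 libraries, with scores of 11.92 and 19.34. Palbociclib replicate 2 alone had a summit 1730 bp downstream, with a score of 13.17.

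Of the 51 sites, 3 had summits from both replicates with palbociclib and from no activin library, against 3.56% of all sites. Both of those at ID4 lay downstream of the gene's start, from 4052 to 4053 bp with scores of 6.83 and 6.59 and from 5241 to 5323 bp with scores of 5.62 and 1.72. The nearest activin summit was 2869 and 4058 bp away. The third was at ID1 from 44864 to 44833 bp upstream, with scores of 6.66 and 4.42, and activin replicate 1 had a summit 367 bp away. All 3 were weak, and the reverse pattern, both activin replicates with no palbociclib summit, was seen at 0 of the 51 sites and at 0.344% of all sites.

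**Figure D4:**
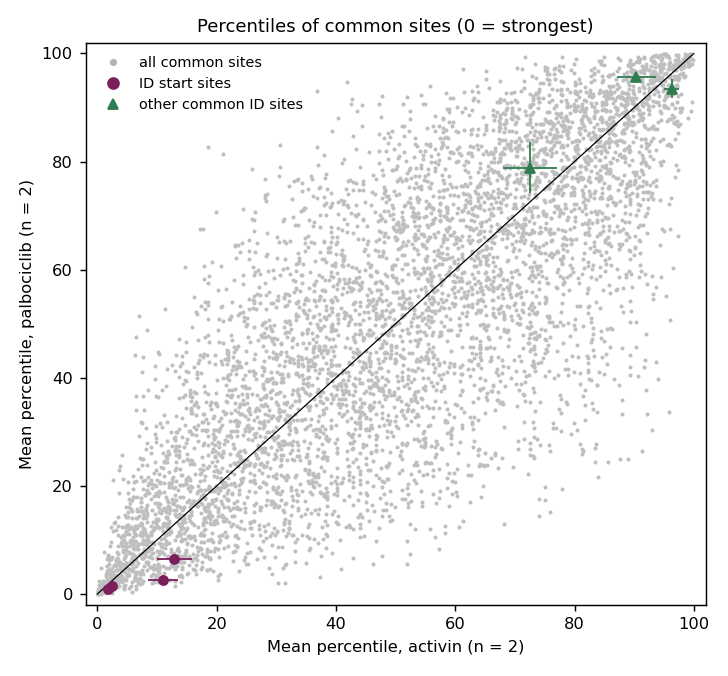
Mean percentile of each common site in the activin group (horizontal) and the palbociclib group (vertical), with 0 for the strongest; grey points are all 5829 common sites and bars on the 7 near ID genes are SD (n = 2). The 4 start sites lie below the line of equal percentiles near the strong corner, and the other 3 lie among the weaker sites on both sides of it.

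The number of summits near ID genes followed the length of the lists. The activin replicates had 28 and 12 and the palbociclib replicates 35 and 25, with group means of 20 ± 11.3 and 30 ± 7.07 (SD, n = 2 each). The palbociclib group had 1.61 times as many by geometric mean (0.69 on the log2 scale), against 1.68 for the whole lists. The exact permutation test, two-sided, gave p = 0.667. Per 1000 summits of the list, 1.1 and 1.66 lay near ID genes in the activin replicates and 1.28 and 1.3 in the palbociclib replicates. In lists of equal length the direction turned, to -0.76 on the log2 scale, with 6 and 12 summits in the activin replicates and 5 in each palbociclib replicate. The 12 are the whole list of activin replicate 2, weak summits included.

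Over all 7 common sites near ID genes, the mean percentile was 41.04 ± 0.949 for activin and 39.95 ± 0.868 for palbociclib (SD, n = 2 each). The difference of -1.09 points gave p = 0.667 in the exact permutation test, two-sided. Over all common sites the mean difference is 0, which the percentile scale fixes. The median difference was -0.982 points over the 7 sites and 0.571 points over all common sites. As percentiles of the whole lists, which differ in length, the 7 sites differed by -11.4 points. The 7 sites did not share 1 order: the palbociclib ranks were better than both activin ranks at 5 of them, worse than both at 1, and overlapped at the site downstream of ID2. Over all common sites these orders held for 26.2% and 28.2%, and 4 of the 5 are the start sites counted above. Without activin replicate 2 the difference over common sites was 0.157 points, and 16 sites rather than 7 were common to the libraries that remained.

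The limit of 50 kb passed through a group of weak summits at ID1. There the last summit inside, of palbociclib replicate 2, lay 49882 bp upstream with a score of 3.39, and the next outside, from the same library, lay 50095 bp upstream with a score of 4.54. At ID2, ID3 and ID4 the nearest summits outside the limit lay 97880, 54571 and 374949 bp from the start.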

How the data were processed

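SMAD2 ChIP-seq summit lists of 4 libraries were used; data of the 2 inputs were not used here. The tools were MACS2 2.0.9 (a peak caller), Bowtie 1.1.0 (an aligner) and Picard on build hg19, per the submitters' processing notes, with steps and parameters not given in the sources used here. Per the labels, each treatment had its own input. The deposited score is on a −log10 scale (−log10 of a p or q value), and its minimum in the 4 lists, 1.31 to 1.4, lies just above 1.30, which is −log10 of 0.05.

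From these lists, neighbouring summits at most 250 bp apart were joined into sites, and a site's score in a library was its best summit's. List ranks give ties the best rank; percentiles among common sites use average ranks. A site belonged to a gene with at least 1 summit within 50 kb of the start. Distances follow the gene's strand. Named are all sites within 5 kb, each gene's best, those in all 4 libraries and those of 1 treatment. Groups were compared by exact permutation tests. The site functions were tested on simulated data. The members, sites and lists were chosen with earlier results of these data known. Genes of the BMP pathway were not analysed here, for want of hg19 starts. Promoter sequences and gene order, by start position only, came from RefSeq (GRCh38.p14). Python 3.11.15, numpy 2.4.6, pandas 2.3.3 and matplotlib 3.10.9 were used.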

Additional observations from a re-analysis of the deposited data

How the results depend on the processing

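The count of 4 genes with a start site in all 4 libraries, and of 4 start sites with palbociclib ranked above activin, was the same under every setting run: joining distances of 100 and 500 bp, scores of at least 2, equal-length lists, each library left out and, for the ranks, whole-list percentiles and summed scores. These 2 counts were chosen once the data had been seen, and several of the settings could hardly change them. In every list the start sites scored at least 19.96 and ranked 897 or better, so the cuts on score and list length could not remove them. Leaving out a library could not remove a site found in all 4, and it left fewer ranks to put in order. The log2 ratio of summit numbers reversed in equal-length lists (-0.76) and ran from 0.08 to 1.3 with a library left out. The mean percentile difference of the common sites reversed with a joining distance of 500 bp (0.384 points) and ran from -1.77 to 0.157 with a library left out; with a window of 100 kb, which added 2 common sites, it was -8.93, and with percentiles of the whole lists, which differ in length, it was -11.4. The number of common sites ran from 7 to 16 with a library left out, with 16 without activin replicate 2, the shortest list, and 7 without any of the others.

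The labels do not say that a replicate number marks a shared batch. Across the 5829 common sites, the deviations of same-numbered libraries correlated at 0.264, over only 2 pairs. With the replicate block, the log2 ratio of summit numbers stayed 0.69 with an exact permutation p of 0.5, the smallest this pairing allows. The percentile difference of -1.09 had an exact permutation p of 1 with the block. The start sites had differences of -8.27 at ID1, -0.98 at ID2, -0.82 at ID3 and -6.39 at ID4, each with a permutation p of 0.5 in the block. Unknown depth limits what an absent summit means, most of all in activin replicate 2.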
